A study of Mus musculus with 6 samples.

Results

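The genes described here are Ang, Ang2, Rnase4, Rnase1, Rnase2a, Rnase6 and Rnase10, which encode secreted proteins of the RNase A family, and Rnh1. Rnh1 encodes the cytosolic inhibitor of the ribonucleases of this family. The genes were found by symbol through the Entrez Gene ID of each array row, and all 8 were measured, out of 25206 rows. The family was picked because Rnase4 and Ang had the 10th and 14th highest log2 fold changes of all rows in this same comparison. The values of the 8 genes in that comparison are therefore given as a description. How many of them passed the threshold applied to all rows is stated for completeness, and supports nothing about the family.

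Whole-kidney extracts from 3 wild-type and 3 Vhl knockout male mice, aged 3 months and on the C57BL/6 strain, were hybridised to Affymetrix Mouse Gene 2.0 ST arrays, 1 for each sample. All 6 mice carried the floxed Vhl allele, and the knockout mice also carried the Hoxb7-Cre-GFP transgene. The sample records of the arrays name no Cre for the wild-type mice, while the study's cultured tubule cells came from wild-type mice with the transgene. If the wild-type mice of the arrays had none, the loss of Vhl and the transgene cannot be told apart. The Hoxb7 promoter drives Cre in the ureteric bud and the collecting ducts that grow from it, so the extract also held many cells that kept Vhl. Values are log2 signals made by the authors with RMA, in which a difference of 1 is a doubling. The sources do not state that every array came from its own mouse, so errors and p-values measure the spread between these samples, which may be technical.

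RNase A family ribonucleases are small secreted enzymes that cut single-stranded RNA. Angiogenin, encoded by Ang, is known for the growth of blood vessels and for cutting transfer RNA in stressed cells, and stressed kidney tubule cells are known to make it. RNase 4 and RNase 6 are known as antimicrobial proteins of the urinary tract, the first from collecting duct cells and the second from macrophages. The inhibitor encoded by Rnh1 binds these enzymes tightly and holds them inactive inside cells.

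The arrays carried kidney transcripts in both genotypes, since all 6 measured proximal tubule markers, all 5 of the loop and distal tubule, all 9 of intercalated cells and all 6 of principal cells were above the array median on every array. The row of the targeted gene did not check the labels, since Vhl read 6.03 to 6.13 in wild-type and 6.08 to 6.18 in knockout kidneys, and the exons that it covers are not stated in any source here. The arrays of Vhl knockout replicates 1 and 3 stood apart in adipocyte markers. The mean log2 signal of the 5 measured markers (Adipoq, Retn, Cidec, Plin1 and Lep) was 6.85 and 5.94 on these arrays. It was 4.20 on the remaining knockout array and ranged from 3.96 to 4.43 among wild-type arrays.

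Ang and Rnase4 are neighbors on mouse chromosome 14 and are known to be read from a shared promoter region, each with a coding exon of its own. The RefSeq promoter table (build GRCm38.p6, 250 bases before to 50 after each start) matched 7 of the 8 genes, and Ang2 had no entry. The table gave Ang and Rnase4 an identical window at chr14:51090827-51091126 on the plus strand, and gave Rnase4 a further window downstream at chr14:51095750-51096049, also on the plus strand. Both windows are printed because these 2 genes moved together. Capitals mark the core letters GCGTG or ACGTG on either strand, the core of the element bound by hypoxia-inducible factors, which Vhl is known to mark for breakdown.
Ang and Rnase4, shared start: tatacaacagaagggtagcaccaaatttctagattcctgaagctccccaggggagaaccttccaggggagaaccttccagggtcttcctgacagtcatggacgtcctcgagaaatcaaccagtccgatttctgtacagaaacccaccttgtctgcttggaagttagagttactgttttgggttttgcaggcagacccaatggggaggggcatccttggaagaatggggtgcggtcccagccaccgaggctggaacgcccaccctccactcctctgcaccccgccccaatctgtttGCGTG
Rnase4, downstream start: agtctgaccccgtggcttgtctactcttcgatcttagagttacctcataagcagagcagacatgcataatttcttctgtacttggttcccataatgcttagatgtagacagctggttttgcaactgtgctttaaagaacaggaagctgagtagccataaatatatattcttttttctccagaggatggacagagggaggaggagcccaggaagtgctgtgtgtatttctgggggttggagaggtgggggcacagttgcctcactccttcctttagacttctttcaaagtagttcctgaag

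The shared window held 1 GCGTG, in its last 5 bases and thus downstream of the start, and no ACGTG. The downstream window held neither. Of the 12 distinct windows of these genes, 2 held a core, the other being a window of Rnh1 with 3 matches to ACGTG, of which 2 overlap as a palindrome. Among all 32817 RefSeq windows of this length, 43.8% held at least 1 such core. The STAT letters TTCNNNGAA, searched on both strands, had 1 match in the window of Rnase1 and none in those of Ang and Rnase4, and were in 8.29% of all windows. The letters TGACGTGG of the XBP1 element, also on both strands, were in none of the 12 windows and in 0.676% of all windows. These matches describe letters and are not evidence of binding.

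Ang, which encodes angiogenin, was higher on every knockout array than on any wild-type array. In replicates 1, 2 and 3 the log2 signal of Ang was 5.48, 4.88 and 5.26 without the knockout and 8.07, 6.69 and 6.75 with it. Knockout replicate 1 was far above the other knockout arrays, and the groups were 1.21 apart at their closest. The mean signal was 5.21 ± 0.305 in wild-type and 7.17 ± 0.779 in knockout kidneys (SD, n = 3 each). The log2 fold change was 1.97 (standard error 0.364, 95% interval 1.11 to 2.82), or 3.90-fold with an interval from 2.16-fold to 7.06-fold.

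Rnase4, which encodes ribonuclease 4, was also higher on every knockout array than on any wild-type array. Wild-type arrays had log2 signals of 8.11, 8.0 and 7.72, and knockout arrays of 10.94, 9.42 and 9.93. Knockout replicate 1 was again the highest, and the lowest knockout array was 1.31 above the highest wild-type array. The mean signal was 7.94 ± 0.205 in wild-type and 10.10 ± 0.775 in knockout kidneys (SD, n = 3 each). The log2 fold change was 2.15 (standard error 0.349, 95% interval 1.33 to 2.97), or 4.45-fold with an interval from 2.52-fold to 7.86-fold.

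The changes of Ang and Rnase4 were close on each knockout array. Relative to its own wild-type mean, Ang was 2.86, 1.49 and 1.55 higher on knockout replicates 1, 2 and 3, and Rnase4 was 3.00, 1.48 and 1.98 higher. The change of Rnase4 minus that of Ang was 0.14, -0.01 and 0.44 on the knockout arrays and -0.11, 0.39 and -0.28 on the wild-type arrays. The genotypes overlapped in this difference, so the changes of the 2 genes did not differ beyond the spread between arrays. The exons that each row covers are not stated either, and shared noncoding exons could give both rows signal from the same transcripts. The knockout arrays spread over 1.38 for Ang and 1.52 for Rnase4, a wider range than in 99.6% and 99.7% of rows.

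Rnase1 encodes the pancreatic-type ribonuclease, which in humans is also made by endothelial cells and clears RNA outside cells. Wild-type arrays had log2 signals of 3.73, 3.63 and 3.38, and knockout arrays of 4.08, 4.25 and 4.27. The groups did not overlap and were 0.35 apart, and knockout replicate 1 was here the lowest of the knockout arrays. The log2 fold change was 0.62 (standard error 0.110, 95% interval 0.36 to 0.88), or 1.53-fold. The row was dim, below the array median on all 6 arrays.

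Rnase6, the macrophage ribonuclease, read 5.22, 4.98 and 4.88 on wild-type arrays and 5.36, 5.73 and 5.49 on knockout arrays. All knockout arrays were above the wild-type arrays, but by only 0.15 at the closest, and replicate 2 was the highest. The log2 fold change was 0.50 (standard error 0.127, 95% interval 0.21 to 0.80), or 1.42-fold.

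**Figure D1:**
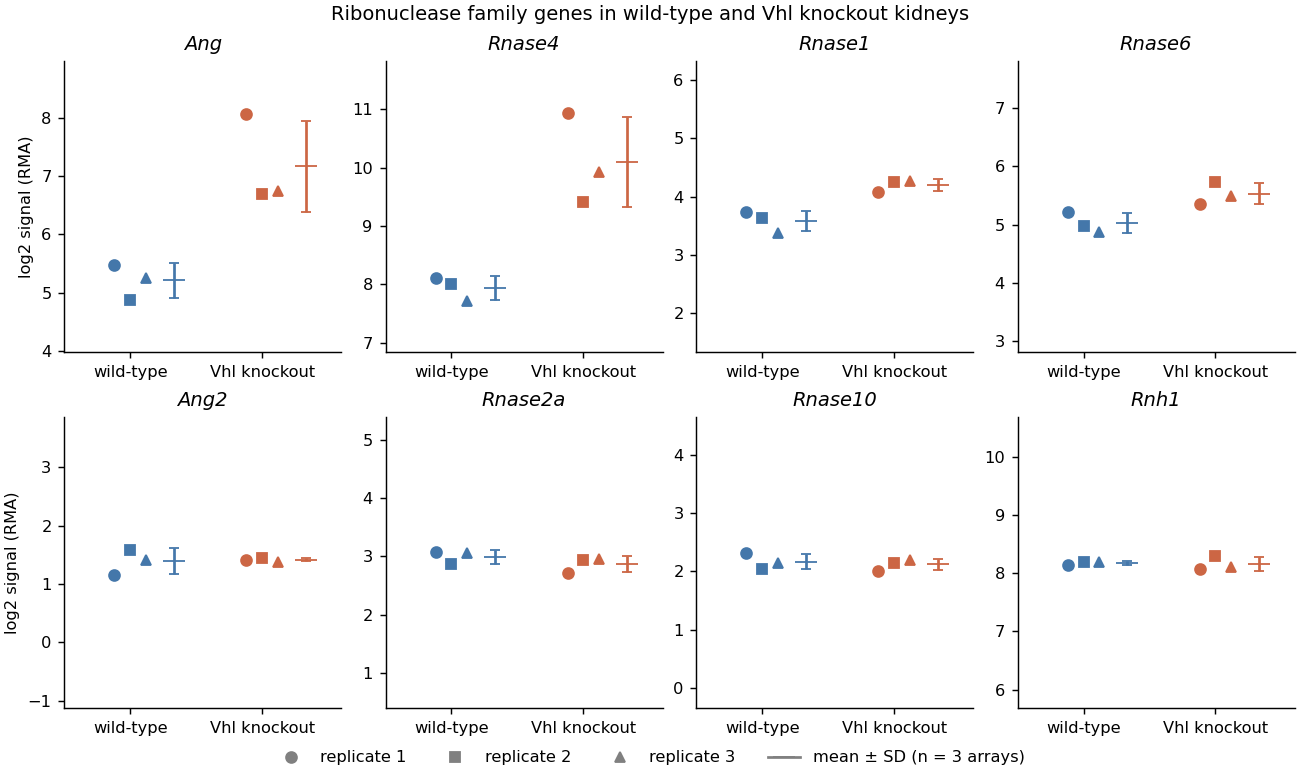
Log2 signal (RMA) of the 8 genes on each array, wild-type in blue and Vhl knockout in orange, with marker shapes for replicates 1 to 3 and bars for the mean ± SD of 3 arrays. All panels span the same number of log2 units, each around its own values. Knockout replicate 1 is the highest array for Ang (8.07) and Rnase4 (10.94) and the lowest knockout array for Rnase1 (4.08) and Rnase6 (5.36).

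The other RNase A genes of the 8 did not share this pattern. Ang2, a mouse relative of Ang without its vessel-forming activity, read 1.15, 1.59 and 1.42 in wild-type and 1.42, 1.45 and 1.38 in knockout kidneys. Rnase2a, a relative of the eosinophil ribonucleases, read 3.07, 2.86 and 3.06 against 2.72, 2.94 and 2.96. Rnase10, known from the epididymis, read 2.31, 2.05 and 2.14 against 2.00, 2.15 and 2.19. In each of them the groups overlapped, with log2 fold changes of 0.03 (95% interval -0.24 to 0.30), -0.12 (-0.36 to 0.11) and -0.05 (-0.28 to 0.17). On all 6 arrays these 3 rows were below the lower quartile, so a transcript that is not made and one that the row cannot read would look alike.

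Rnh1, the inhibitor, differed little between the genotypes. Wild-type arrays had log2 signals of 8.14, 8.19 and 8.19, and knockout arrays of 8.07, 8.30 and 8.11, and the groups overlapped. The log2 fold change was -0.01 (standard error 0.084, 95% interval -0.21 to 0.18), or 0.990-fold with an interval from 0.863-fold to 1.14-fold. This row was above the median on all 6 arrays.

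Across the 8 genes, 3 passed an adjusted p of 0.05 as higher in limma (Ang, Rnase4 and Rnase1), 0 as lower and 5 did not pass. Over all rows 2.24% were called higher and 2.77% in either direction, and since the family was picked from this comparison, nothing is read from the count. All knockout arrays lay above all wild-type arrays in 4 of the 8 genes, against 11.2% of all rows. The median log2 fold change was 0.27 over the 8 genes and -0.03 over all rows. The calls changed when any 1 array was left out. Leaving 1 out also lowered the calls over all rows, from 697 to between 245 and 409. None of the 8 genes passed without wild-type replicate 1, 2 or 3 or without knockout replicate 3, where Ang had log2 fold changes of 2.10, 1.80, 1.99 and 2.18 and Rnase4 2.24, 2.18, 2.04 and 2.24. Without knockout replicate 2 only Rnase4 passed, with 2.49, and without knockout replicate 1 Ang passed with 1.52 and Rnase4 with 1.73. Rnase1 passed in none of these 6 fits, with 0.52 to 0.69, and no sign changed for these 3 genes.

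**Figure D2:**
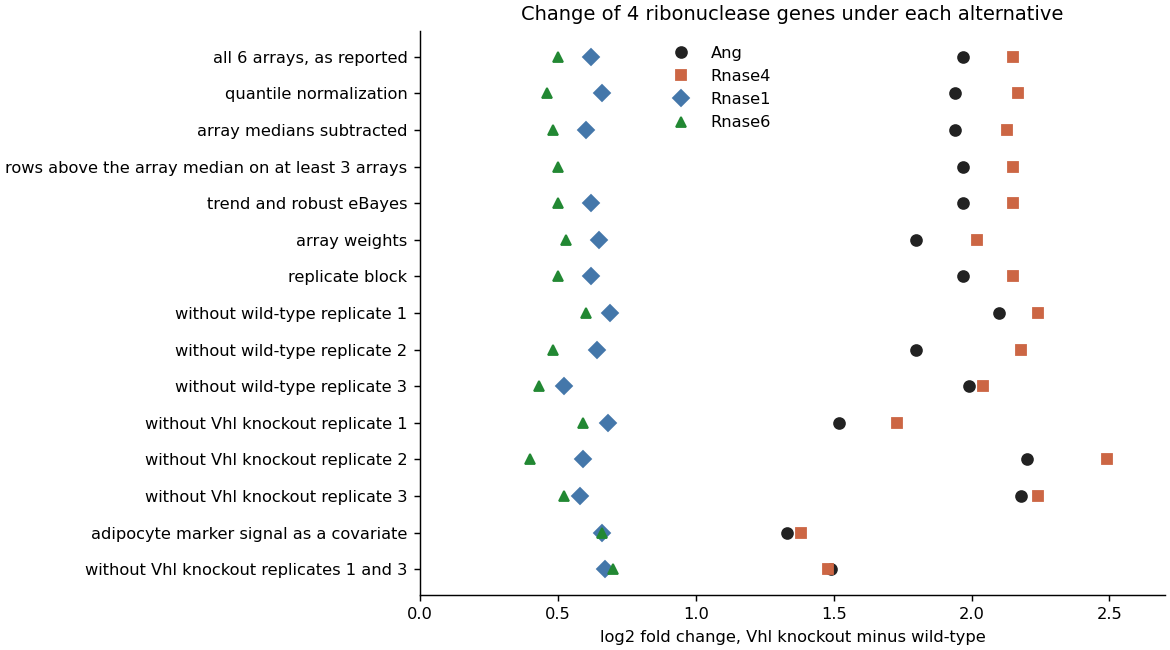
Log2 fold change, Vhl knockout minus wild-type, of Ang, Rnase4, Rnase1 and Rnase6 with all 6 arrays and under each alternative. Ang runs from 1.33 to 2.20 and Rnase4 from 1.38 to 2.49, lowest for both with the adipocyte marker signal as a covariate, while Rnase1 (0.52 to 0.69) and Rnase6 (0.40 to 0.70) stay below 1. Rnase1 is left out by the filter on dim rows.

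Of 17 listed RNase A genes outside the 8, 9 were measured, and limma called 0 of them higher and 0 lower, against 2.24% of all rows higher and 0.524% lower. At an unadjusted p under 0.05 the count was also 0 in both directions, against 8.67% of all rows higher and 8.38% lower. They were the angiogenin relatives Ang4 and Ang5, the eosinophil-associated Ear6, Ear14 and Rnase2b, and Rnase9, Rnase11, Rnase12 and Rnase13, which are known from the male reproductive tract. Their log2 fold changes had a median of -0.11, and the largest in size were -0.24 for Ang4 (95% interval -0.62 to 0.15, adjusted p = 0.521) and -0.18 for Ear14 (95% interval -0.50 to 0.14, adjusted p = 0.562). The lower quartile was not reached on any array by 8 of the 9 rows, so little can be read from them. The eosinophil markers Siglecf, Ccr3, Epx, Prg2 and Il5ra had 0 of 5 past the test, with mean signals of 3.32 to 3.47 in wild-type and 3.33 to 3.41 in knockout kidneys.

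**Figure D3:**
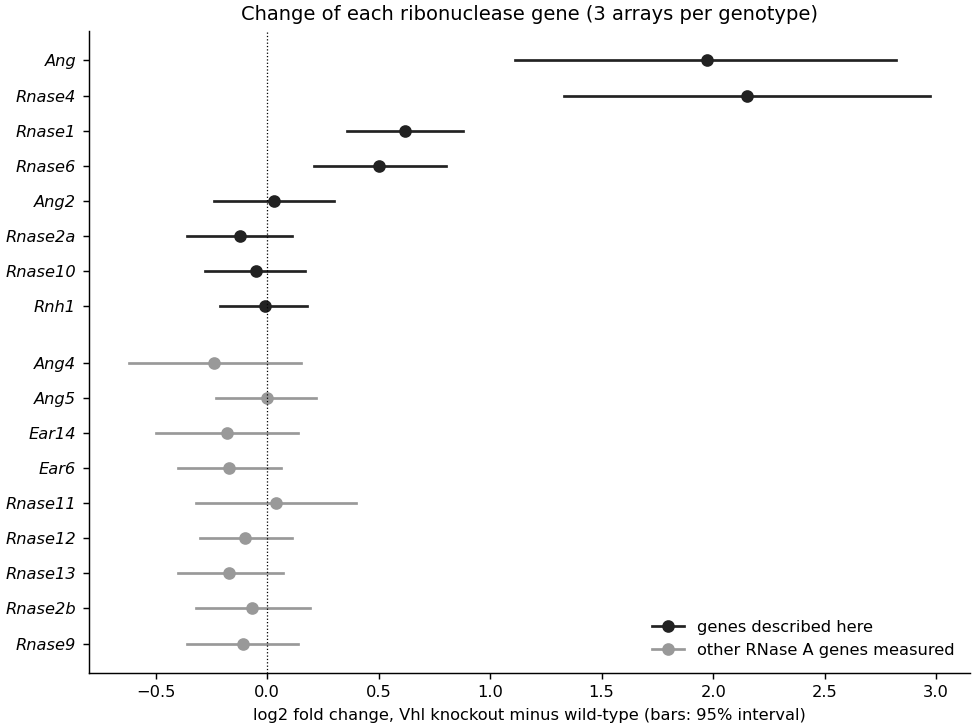
Log2 fold change, Vhl knockout minus wild-type, with its 95% interval, of the 8 genes described here (black) and of the 9 other RNase A genes measured (grey). Ang (1.97), Rnase4 (2.15), Rnase1 (0.62) and Rnase6 (0.50) have intervals above 0, and the intervals of all other genes shown include 0.

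Along chromosome 14, Ang and Rnase4 lay side by side, with Rnase1 and Rnase6, which did not pass the threshold, close by. In RefSeq order, Ang, Rnase4, Rnase6 and Rnase1 followed one another with a single measured gene, Eddm3b, between Rnase4 and Rnase6. In a stretch of 39 protein-coding genes with an array row, from 6 genes before Rnase10 to 6 after Rnase13, 7 were the genes described here. Of the other 32, 0 passed the test in limma as higher and 0 as lower, against 2.24% and 0.524% of all rows. With 32 genes these counts are near the background. Some of the 32 rows were dim, with wild-type means down to 0.99, so little can be read from those. The log2 fold changes of the 32 ran from -0.78 to 0.37, with a median of -0.06. The DNA repair gene Apex1 had 0.12 (adjusted p = 0.596) and Ndrg2 0.17 (adjusted p = 0.492).

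**Figure D4:**
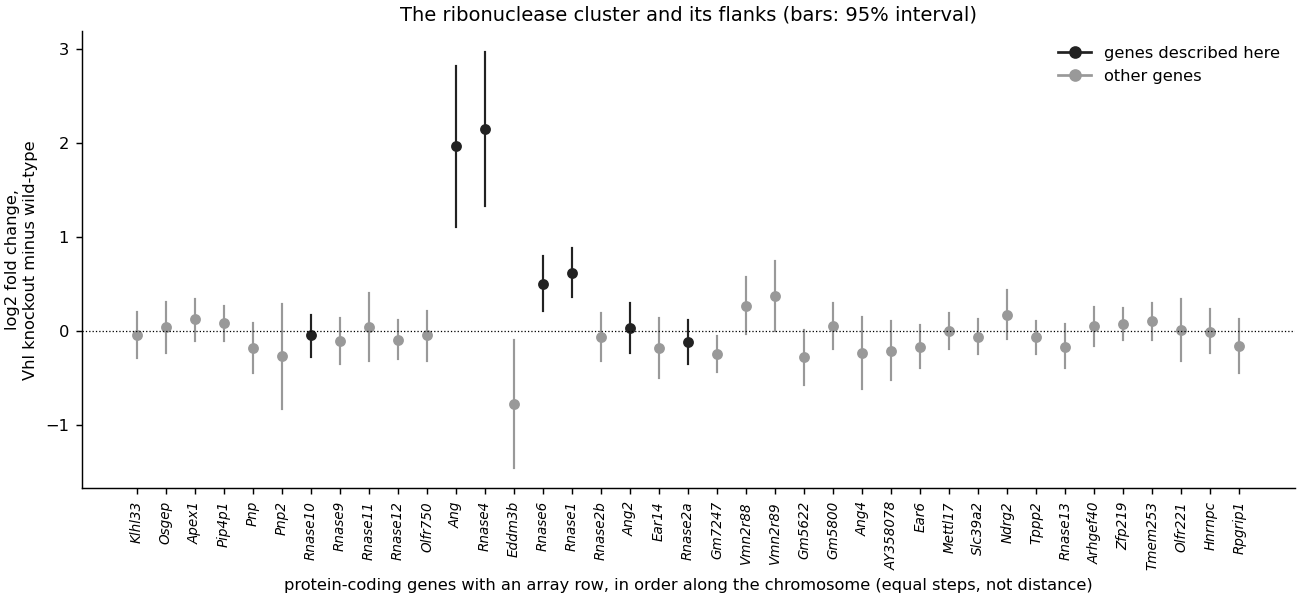
Log2 fold change with its 95% interval of 39 protein-coding genes in chromosomal order, at equal steps rather than by distance, with the genes described here in black. Ang (1.97) and Rnase4 (2.15) stand side by side, Rnase6 (0.50) and Rnase1 (0.62) follow, and the other 32 genes lie between -0.78 and 0.37.

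The genes whose profile was most like that of Ang were Lox and Rnase4. Likeness was measured over the 6 arrays as the root mean square difference of log2 signals, each relative to the gene's wild-type mean. It was 0.254 for Lox, a collagen crosslinking enzyme, and 0.273 for Rnase4, the next of 20198 genes. The complement component C7 followed with 0.287, Clca3a2 with 0.289 and the interferon-inducible Ifi205 with 0.366. For Rnase4 the closest gene was Ang, and then C7 with 0.290, the squamous envelope protein Sprr1a with 0.335, Clca3a2 with 0.352 and Lox with 0.373. The measure takes in the size of the change, and these 5 genes ranked from 11th to 23rd of all rows by log2 fold change. Lox was 2.44, 1.91 and 1.52 above its wild-type mean on knockout replicates 1, 2 and 3, and C7 2.56, 1.64 and 1.52. Since these genes were chosen for their likeness to Ang and Rnase4, the shared order of arrays is part of the choice.

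Markers of other cell types moved with some of these genes, and in bulk tissue more cells of a type and more RNA per cell cannot be told apart. Of 5 measured adipocyte markers, 0 passed the test, against 2.77% of all rows in either direction. Their summed linear signal was 91.0 to 123 in wild-type and 102 to 1002 in knockout kidneys. On knockout replicate 2 these markers were on average 0.04 below their wild-type mean, within the wild-type range, while Ang was 1.49 and Rnase4 1.48 higher. Single markers on that array ran from -0.40 for Cidec to 0.31 for Lep relative to wild-type, and Lep was above every wild-type array. On knockout replicates 1 and 3 the markers were 2.61 and 1.70 higher. Ang was 2.86 and 1.55 higher on these arrays, and Rnase4 was 3.00 and 1.98 higher. Among knockout arrays both genes, like the markers, were highest on replicate 1 and lowest on replicate 2. Ang was close on replicates 2 and 3. With the mean adipocyte marker signal as a covariate, the log2 fold changes were 1.33 for Ang, 1.38 for Rnase4, 0.66 for Rnase1 and 0.66 for Rnase6. None of the 4 passed the threshold, and the calls over all rows fell from 697 to 109. The covariate was itself highest on knockout replicates 1 and 3, so it is partly tied to genotype. Whether adipocytes had a part in these changes was not tested.

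Macrophage markers were higher on all knockout arrays. Of 11 measured markers, 9 passed the test in limma as higher and 0 as lower, against 2.24% and 0.524% of all rows. Their summed signal was 746 to 873 in wild-type and 1649 to 1783 in knockout kidneys. Relative to the wild-type mean the markers were on average 1.18, 1.04 and 1.07 higher on knockout replicates 1, 2 and 3, more than Rnase6 with 0.34, 0.70 and 0.47. Of 7 endothelial markers, 1 passed in limma as higher (Tie1, log2 fold change 0.49, adjusted p = 0.0299), against 2.24% of all rows. At an unadjusted p under 0.05, 6 were higher, against 8.67% of all rows. The median log2 fold change was 0.33, and Kdr had -0.03. The endothelial mean was 0.47, 0.19 and 0.28 higher on knockout replicates 1, 2 and 3, against 0.50, 0.67 and 0.69 for Rnase1. The part of macrophages and endothelium in these changes was not tested.

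Liver is a known source of angiogenin and ribonuclease 4 and pancreas of ribonuclease 1. Of 7 measured hepatocyte markers, 0 passed the test, against 2.77% of all rows in either direction. Relative to the wild-type mean they averaged -0.39, -0.0 and 0.05 on knockout replicates 1, 2 and 3. On replicate 1 single markers ran from -1.37 for Apoh to 0.19 for Cps1. Their summed signal was 1515 to 1802 in wild-type and 1164 to 2230 in knockout kidneys. Most of that sum came from Ttr, with log2 signals of 10.26 to 10.56 in wild-type and 9.91 to 10.92 in knockout kidneys. Whether liver RNA had a part in the changes of Ang and Rnase4 was not tested. Of 6 pancreatic acinar markers, 0 passed, against 2.77% of all rows, and 3 were below the lower quartile on all arrays. Their summed signal was 83.7 to 86.5 in wild-type and 66.3 to 78.9 in knockout kidneys. Of 9 markers of intercalated cells, the collecting duct cells that secrete acid or base, 0 passed, against 2.77% of all rows. Their mean was 0.10, -0.30 and -0.18 relative to wild-type on knockout replicates 1, 2 and 3. Of 6 principal cell markers, 2 passed as lower, against 0.524% of all rows, with log2 fold changes of -0.70 for the water channel Aqp3 and -0.78 for Fxyd4. The rest had -0.09 (Aqp2), -0.04 (Avpr2), -0.01 (Scnn1b) and 0.17 (Scnn1g), and the median of the list was -0.06.

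**Figure D5:**
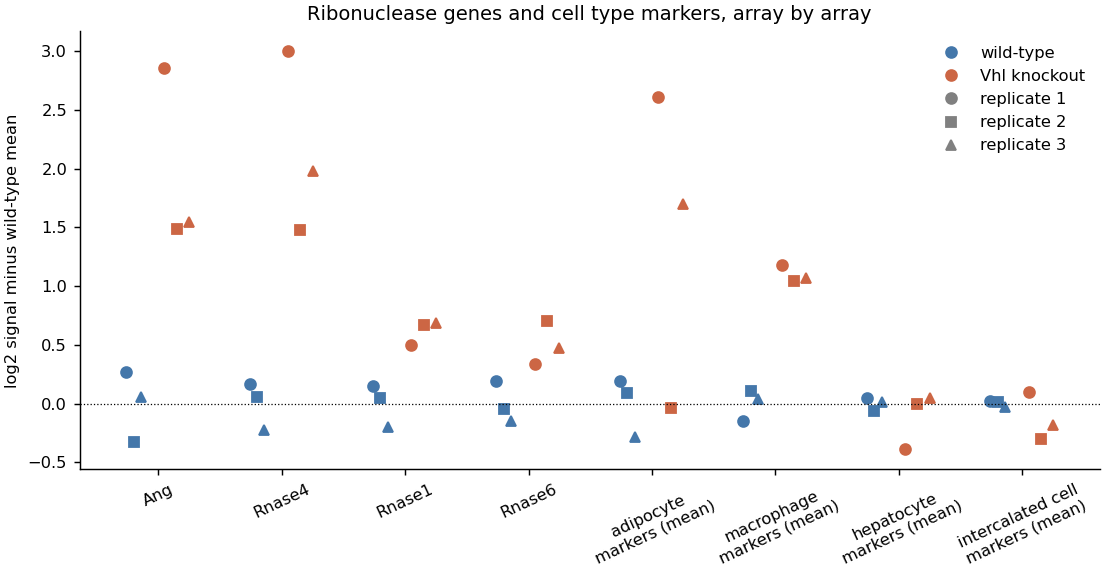
Log2 signal relative to the wild-type mean for Ang, Rnase4, Rnase1 and Rnase6 and for the mean of 4 marker lists, with 1 point per array. On knockout replicate 2 (orange squares) the adipocyte markers lie at -0.04 while Ang and Rnase4 lie at 1.49 and 1.48, and the macrophage markers are 1.04 to 1.18 higher on all 3 knockout arrays.

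A further list held 7 genes, for receptors and binding proteins of angiogenin and for guards or binders of its RNA substrates. Of these 7, limma called 0 higher and 0 lower, against 2.24% and 0.524% of all rows. At an unadjusted p under 0.05, 0 were higher and 1 was lower, against 8.67% and 8.38% of all rows, so with 7 genes these counts are near the background. The receptor Plxnb2 read 9.36, 9.39 and 9.43 on wild-type arrays and 9.35, 9.38 and 9.41 on knockout arrays, a log2 fold change of -0.01 (95% interval -0.17 to 0.15, adjusted p = 0.955). Trdmt1, a transfer RNA methyltransferase whose mark is known to protect against cutting, had -0.27 (95% interval -0.48 to -0.05, adjusted p = 0.198). Egfr, listed among the receptors of angiogenin, had -0.19 (95% interval -0.39 to 0.01, adjusted p = 0.306). Plxnb2 was named after its values were seen.

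Among 16 measured ribonucleases of other families, 2 were higher, 0 lower and 14 did not pass the test in limma, against 2.24% of all rows higher. The median log2 fold change was 0.01. Pld4, a lysosomal nuclease of macrophages and dendritic cells, read 5.50, 5.88 and 5.52 in wild-type and 6.92, 6.94 and 6.77 in knockout kidneys, and rose by 1.24 (standard error 0.120, adjusted p = 0.00403). The macrophage markers given above were also higher on these arrays. Isg20, an interferon-stimulated exonuclease, read 5.79, 5.76 and 5.63 against 6.75, 6.49 and 6.23, and rose by 0.77 (standard error 0.134, adjusted p = 0.0314). Isg20 passed without knockout replicate 3 (adjusted p = 0.0262) but not without any other array, with adjusted p = 0.0593 without knockout replicate 1, 0.0855 without knockout replicate 2 and 0.0956, 0.0938 and 0.105 without wild-type replicates 1, 2 and 3.

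Of 13 measured antimicrobial genes of the urinary tract outside the RNase A family, 1 was higher (Lcn2, log2 fold change 3.79, adjusted p = 0.000234 in limma), 0 lower and 12 did not pass, against 2.24% of all rows higher and 0.524% lower. The median was -0.11. Pigr, which carries antibodies across epithelium, had -0.45 (adjusted p = 0.304), and the beta-defensin Defb1 read 9.15 to 9.28 in wild-type and 8.96 to 9.32 in knockout kidneys. Defb1 was named after its values were seen. On all arrays 5 of the 13 rows were below the lower quartile.

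Angiogenin is known to be induced through the endoplasmic reticulum stress sensor IRE1 and the factor XBP1 in tubule cells. The list taken here was wider, with IRE1, XBP1 and other genes of the unfolded protein response. Of its 13 genes, limma called 0 higher and 0 lower, against 2.24% and 0.524% of all rows. At an unadjusted p under 0.05, 2 were higher and 1 lower, against 8.67% and 8.38% of all rows, which is near the background for 13 genes. The median log2 fold change was -0.01. Xbp1 read 9.90, 10.03 and 9.65 in wild-type and 10.03, 9.95 and 9.93 in knockout kidneys, with a log2 fold change of 0.11 (95% interval -0.14 to 0.37, adjusted p = 0.647). Atf3, a stress transcription factor, had 0.40 (adjusted p = 0.185) and Edem1, which directs misfolded proteins to breakdown, -0.35 (adjusted p = 0.149). Splicing of Xbp1, the step that IRE1 carries out, cannot be read from 1 value per gene. Xbp1 was named after its values were seen.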

How the data were processed

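RNA from 3 wild-type and 3 Vhl knockout whole kidneys was profiled on Affymetrix Mouse Gene 2.0 ST arrays. Signals on a log2 scale, made by the authors with RMA, were deposited for 25206 Entrez Gene rows. The software and genome build were not given in the sources used here. A table of the authors' own comparison, deposited with a moderated statistic (a score), a p-value and a q-value, was used only to check that its log2 values were equal in all 25206 rows. Genotype and replicate number came from the sample titles. Symbols came from the platform annotation, updated by Entrez ID through RefSeq (GRCm38.p6), for 23185 rows.

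Genotypes were compared row by row in R 4.3.3 with lmFit and eBayes of limma 3.58.1, with no covariate. Benjamini-Hochberg adjusted p-values were taken over the whole table, at a threshold of 0.05. The fit was tested on simulated data. Tables and figures were made with Python 3.11.15. Precision is limited by the number of arrays, which have no read depth. No background filter was applied. The genes, lists, markers, tests and alternatives were chosen with earlier results of these data known. Named were the 8 genes, up to 5 called genes of each list (lists with under 2 calls: the 2 genes that changed most), and the 4 genes most like Ang and Rnase4, leaving out predicted genes. Genes named after their values were seen are marked as such. Alternatives covered normalization, dim rows, the variance model, array weights, a replicate block, each array left out, the threshold and an adipocyte covariate.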

Additional observations from a re-analysis of the deposited data

How the results depend on the processing

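Of the 8 genes, 3 were called higher. The count was also 3 after quantile normalization, with array medians subtracted, with array weights and over the 12778 rows that exceeded the median of 3 or more arrays, where Rnase1 was not tested and Rnase6 took its place. It was 1 (Rnase1) with trend and robust eBayes, 0 with the adipocyte marker signal as a covariate, 0 without Vhl knockout replicates 1 and 3 (a setting chosen after seeing the data), 0 at an adjusted p threshold of 0.01, 4 at 0.1, and 0 to 2 with 1 array left out. No setting called any of them lower. Without knockout replicates 1 and 3 the log2 fold changes were 1.49 for Ang, 1.48 for Rnase4, 0.67 for Rnase1 and 0.70 for Rnase6, with the lone knockout array assumed to vary like the wild-type arrays. For Rnh1 they were 0.12 there and 0.11 with the covariate.

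The sample titles do not say whether the replicate numbers pair the samples. The deviations of samples with the same number had correlations of 0.036, 0.0731 and -0.0996, against -0.102 to 0.0663 for different numbers. Such values cannot exclude a pairing with a small effect. With the replicate block 2 of the 8 genes passed (Ang and Rnase4), and 270 of all rows against 697. Of the 57 genes of the 5 lists, 3 were higher and 0 lower, and 1 was higher with the adipocyte covariate and 1 without knockout replicates 1 and 3. Over all rows the calls numbered 1101 with the filter on dim rows, 1094 with trend and robust eBayes, 109 with the covariate, 8 without knockout replicates 1 and 3, and 245 to 409 with 1 array left out. The causes were not tested, apart from fewer samples or fewer rows by construction.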

Other observations

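Eddm3b, an epididymal protein gene that lies between Rnase4 and Rnase6, was chosen after its values were seen. Wild-type arrays had log2 signals of 7.10, 7.32 and 6.62, and knockout arrays of 5.67, 6.25 and 6.77, so the groups overlapped. In limma the log2 fold change was -0.78 (95% interval -1.46 to -0.10, adjusted p = 0.233). Its lowest array was knockout replicate 1, where Ang and Rnase4 were highest.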
